A study of Mus musculus with 3 samples.

Results

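The SPARC family was followed through single cells of the mouse patellar tendon at 20 weeks and 2 weeks of age. Its 7 members, Sparc, Sparcl1, Smoc1, Smoc2, Spock1, Spock2 and Spock3, were taken as every row of the count matrices whose gene symbol equals one of these names, and each symbol had 1 row among the 32288 features of all 3 libraries. Cells of this tendon, which joins the kneecap to the shin bone, were released with collagenase, and a flow sort kept those of neither blood nor endothelial origin. Their transcripts were counted with the 10x Chromium method for 3′ ends, in which a unique molecular identifier (UMI) marks each captured molecule. At 20 weeks of age there were 2 libraries (replicates 1 and 2), and at 2 weeks there was 1. All animals are labelled wild type. The strain, the sex and the number of animals in a library are not given in the sources used here. The p-values therefore do not measure a known spread between animals. They rest on the spread between the 2 libraries at 20 weeks, largely pooled over genes, which may be technical.

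After cell filters, 607 and 1015 cells of the 20-week replicates and 4950 cells of the 2-week library were used, with 1789585, 5581338 and 34557770 UMIs. The median was 2848 and 5132 UMIs per cell past the filters at 20 weeks, against 6570 at 2 weeks. The 20-week libraries differed far beyond counting noise and were kept as 2 samples. The libraries shared 5 cell barcodes. Although the sort was meant to leave out blood-lineage cells, 20-week replicate 2 held 69 cells with B-lineage markers, and 83 barcodes with muscle fibre markers besides. Despite the wild-type label, the transgene features tdTomato and EGFP had UMIs in all libraries. Among all barcodes tdTomato had 931 and 1427 UMIs in the 20-week replicates and 1095 in the 2-week library. Scaled to the total UMIs of the same barcodes (CPM), these were 493 and 244 CPM at 20 weeks and 30.8 CPM at 2 weeks. EGFP had 89 and 60 UMIs at 20 weeks and 1995 at 2 weeks, or 47.2, 10.3 and 56.1 CPM. Cells were grouped within each library and a group was named only from its marker genes. Tenocyte-like cells (with Tnmd, Fmod, Kera and Thbs4) numbered 146 and 120 at 20 weeks and 683 at 2 weeks. EGFP was among the leading genes of the tenocyte-like cells of 20-week replicate 1. Progenitor-like cells (Cd55, Pi16, Sema3c) numbered 97 and 209 at 20 weeks and 884 at 2 weeks. Mural-like cells, which carry genes of vessel-wall muscle and pericytes (Acta2, Tagln, Rgs5), numbered 51 and 39 at 20 weeks and 681 at 2 weeks.

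SPARC family proteins are secreted into the space around cells and share a follistatin-like domain and a calcium-binding domain. They are matricellular proteins, which modulate how cells meet the matrix rather than build it. SPARC, also called osteonectin, binds fibrillar collagens and takes part in collagen processing and fibril assembly, and it is abundant in bone, tendon and other tissues that lay down collagen. SPARCL1, also called hevin, is its closest relative. SMOC1 and SMOC2 are secreted modular proteins linked to BMP signalling and basement membranes. SPOCK1, SPOCK2 and SPOCK3, the testicans, are proteoglycans that have been linked to the control of matrix proteases. In the GENCODE annotation of GRCm38, Sparc lies on chromosome 11 (55394500 to 55423183, minus strand), Sparcl1 on chromosome 5 (104079111 to 104113733, minus), Smoc1 on chromosome 12 (81026808 to 81186414, plus) and Smoc2 on chromosome 17 (14279506 to 14404790, plus). Spock1 lies on chromosome 13 (57421195 to 57908332, minus), Spock2 on chromosome 10 (60106219 to 60135198, plus) and Spock3 on chromosome 8 (62951009 to 63357103, plus). Sparcl1 and Smoc2 each overlap an annotated antisense gene, and since the strand setting of the counting is not given in the sources used here, their UMIs were taken as deposited.

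The members were present at very different depths. Of all UMIs in the cells used, 641313 belonged to Sparc, 16659 to Sparcl1, 6554 to Smoc2, 1091 to Spock2, 890 to Smoc1, 545 to Spock3 and 6 to Spock1. Spock1 was therefore close to undetected, and no level or comparison is given for it. The family as a whole took up 0.484% and 0.310% of all UMIs in the 20-week replicates and 1.86% in the 2-week library. Sparc made up 89.8% and 59.6% of the family's UMIs in the 20-week replicates and 97.2% at 2 weeks, so the makeup of the family was less dominated by Sparc in both 20-week libraries. Levels below are UMIs scaled to the total UMIs of the same cells (CPM), without further scaling, and fold changes also carry the scaling of the test. Since 3′ counting tags 1 end of a transcript, gene length does not enter these levels.

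Sparc was highest in the matrix-laying cells of the young tendon. At 2 weeks it reached 47276 CPM in osteogenic-like cells, 44227 in tenocyte-like cells and 28514 in chondrocyte-like cells. Its rank by UMIs among all genes was 3 in osteogenic-like, 3 in tenocyte-like and 1 in chondrocyte-like cells. It was lower in progenitor-like cells (12873 CPM), Schwann-like cells (6169), mural-like cells (4832) and myogenic-like cells (2245). Of the 2-week Sparc UMIs, 43.3% came from tenocyte-like cells, which were 13.8% of the cells. At 20 weeks the order of the 3 classes held in all libraries was tighter. Tenocyte-like cells had 5919 and 3558 CPM, progenitor-like cells 3021 and 1794 CPM, and mural-like cells 2735 and 2960 CPM in replicates 1 and 2. Tenocyte-like cells were thus highest in both replicates, while progenitor-like and mural-like cells changed places between them. Cells that should lack the gene were near 0 in 20-week replicate 2. Sparc had 0 UMIs in 69 B-lineage-like cells, and 5 UMIs in 83 muscle fibre-like barcodes, or 17.1 CPM (exact Poisson 95% interval 5.54 to 39.8, counting error only). Myogenic-like cells of that library had 547 CPM. The 2-week library and 20-week replicate 1 held no class that should lack Sparc, so the share of free RNA in their lower levels was not measured, and the 2-week levels of Schwann-like and myogenic-like cells are not read as expression.

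**Figure D1:**
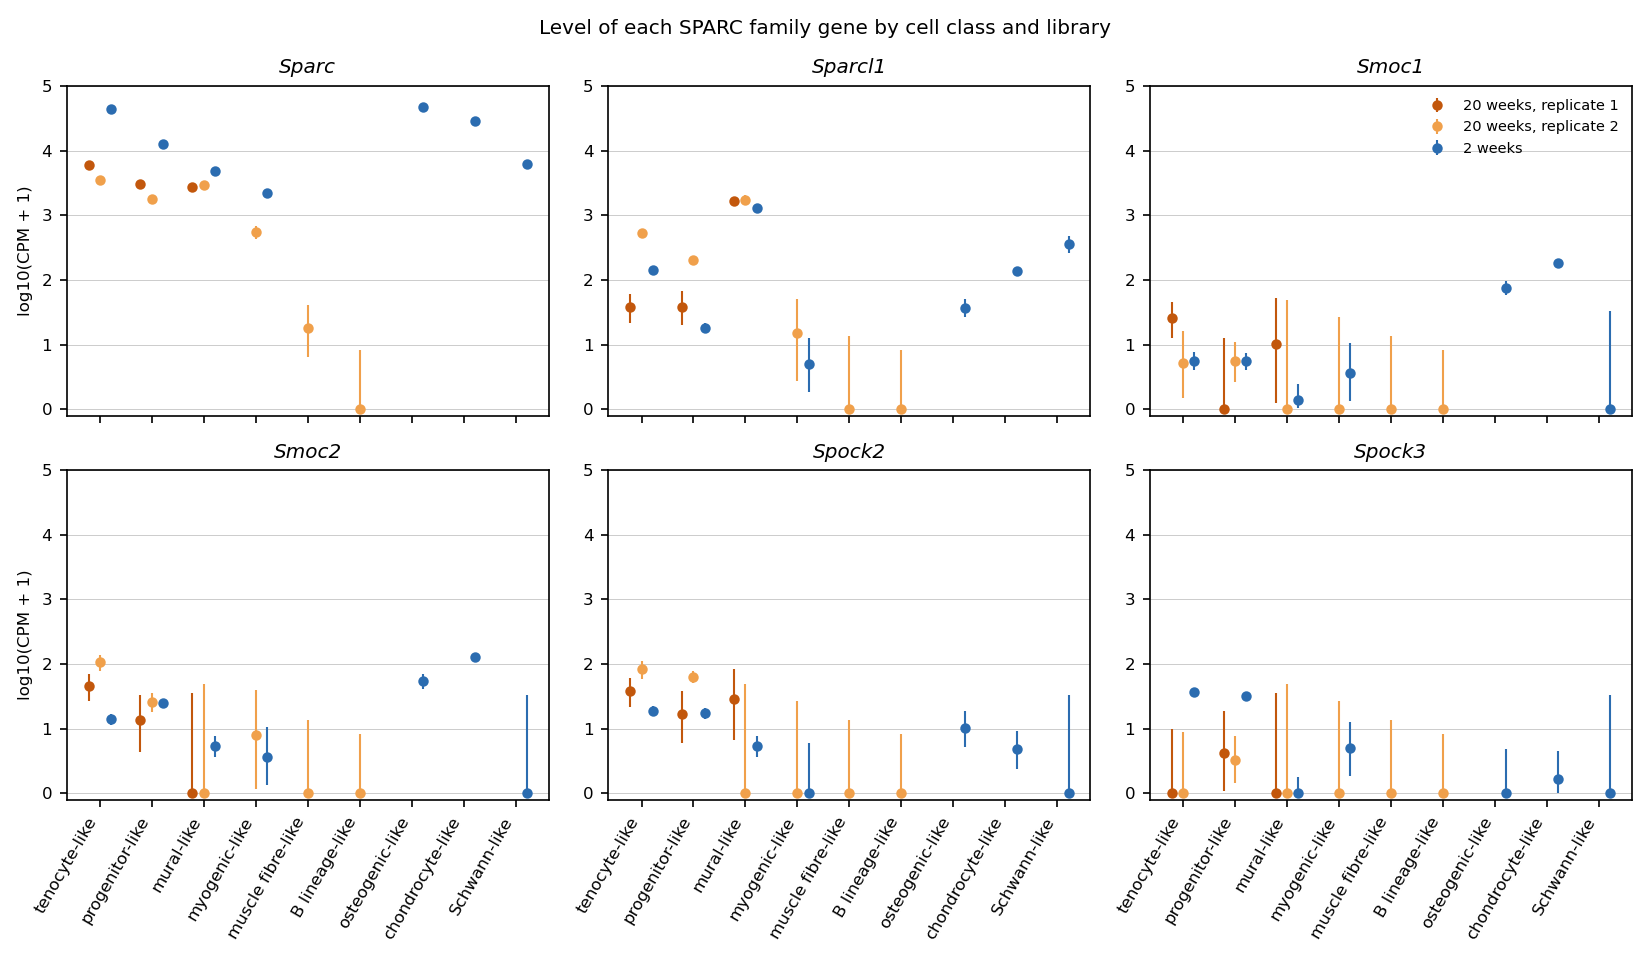
Level of 6 SPARC family genes as log10(CPM + 1) on the vertical axis, by cell class on the horizontal axis, with 1 point per library (20-week replicates left, 2 weeks right) and bars for the exact Poisson 95% interval of the UMI count. Sparc at 2 weeks lies between 2245 and 47276 CPM, Sparcl1 peaks in mural-like cells at both ages, and Spock3 is at 0 in tenocyte-like cells of both 20-week libraries.

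Per cell, Sparc was found in nearly every tenocyte-like cell at both ages, with more molecules at 2 weeks. At least 1 Sparc UMI was found in 97.3% and 94.2% of tenocyte-like cells of the 20-week replicates and in 100% at 2 weeks. When each cell was thinned to 1000 UMIs, so that depth was equal, 7.53% and 19.2% of these cells held no Sparc UMI at 20 weeks and 0% at 2 weeks. The median tenocyte-like cell then held 4.5 and 2 Sparc UMIs in the 20-week replicates and 37 at 2 weeks. The quartiles were 2 and 8 UMIs in replicate 1, 1 and 4 in replicate 2, and 18 and 54 at 2 weeks, and these middle ranges did not overlap between the ages. In progenitor-like cells the medians were 2 and 2 UMIs at 20 weeks and 12 at 2 weeks. In mural-like cells they were 2 and 2 at 20 weeks and 4 at 2 weeks.

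**Figure D2:**
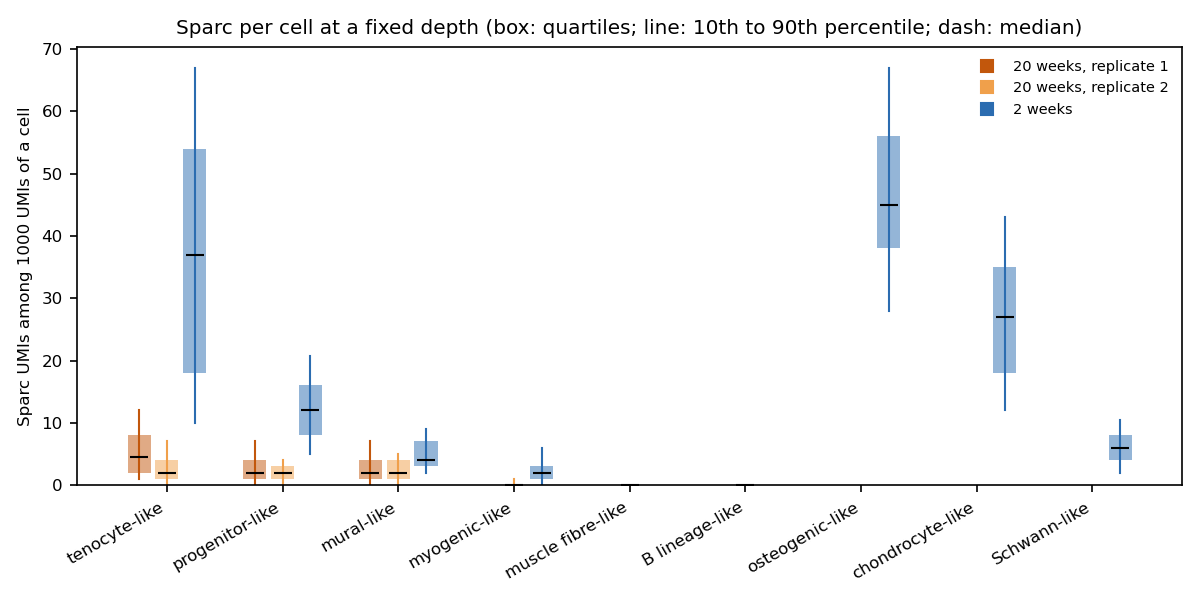
Sparc UMIs among 1000 UMIs drawn from each cell, by class and library (20-week replicates left, 2 weeks right), with boxes for the quartiles, dashes for the median and lines for the range of cells named in the title. Median tenocyte-like cells hold 4.5 and 2 UMIs at 20 weeks and 37 at 2 weeks, and B-lineage-like cells hold none.

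In tenocyte-like cells, 3 of the 6 members that could be tested differed between the ages. Sparc and Spock3 fell and Smoc2 rose at 20 weeks, whereas Sparcl1, Spock2 and Smoc1 did not pass the test. The test was edgeR's quasi-likelihood test on UMI sums per library, adjusted over all 6542 genes tested, of which 4.04% were called. The lone 2-week library is assumed there to vary like the 20-week libraries. Sparc fell 10.5-fold (log2 fold change -3.39, SE 0.73, adjusted p = 0.00121; DESeq2 adjusted p = 0.00012, where 1.92% of genes were called). Both 20-week libraries lay far below the 2-week library.

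Which young tenocytes the older cells were set against changed this result. The 2-week tenocyte-like cells were of 2 clusters, 463 cells led by Angptl7 and Crabp1 (cluster 3) and 220 cells led by Col22a1 and Ptx4, with Tnmd among the leading genes (cluster 6). Sparc stood at 52275 CPM in cluster 3 and 17090 CPM in cluster 6. The 20-week tenocyte-like clusters were led by Fmod and Kera in replicate 1 and by Fmod and Tnmd in replicate 2. Against cluster 3 alone the log2 fold change of Sparc was -3.75 (SE 0.73, adjusted p = 2.28e-05). Against cluster 6 alone it was -1.72 (SE 0.73, edgeR adjusted p = 0.271), the same direction but no longer called. Without the filter on low counts, the adjusted p of Sparc was 0.176 at a log2 fold change of -3.50. Clustered together, the libraries kept the ages largely apart within this class. A cluster led by Spp1 and Ibsp held 231 and 113 cells of the 20-week replicates and 25 of the 2-week library, the Angptl7 cluster held 7 and 8 against 474, and the Col22a1 cluster held 6 and 45 against 207. In that clustering the ages are thus largely compared between different clusters. With 1 library at 2 weeks, differences of cell makeup, age and library cannot be told apart in this. The class was also drawn more widely there, with 244 and 166 cells at 20 weeks in place of 146 and 120. The log2 fold change of Sparc over these 3 clusters was -3.35 (SE 0.83, edgeR adjusted p = 0.00147).

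In progenitor-like cells, 3 of the 5 testable members differed, against 2.78% of the 9729 genes tested (1.25% higher and 1.52% lower at 20 weeks). Sparc and Spock3 fell and Sparcl1 rose at 20 weeks. Sparc fell 5.37-fold (log2 fold change -2.42, SE 0.52, adjusted p = 0.00254; DESeq2 adjusted p = 0.000619, where 1.25% of genes were called). The 2-week progenitor-like cells also came from 2 clusters, led by Cd55 and Scara5 (12307 CPM of Sparc) and by Akr1c18 and Smpd3 (14722 CPM), and the call held against each alone (adjusted p = 0.00126 and 0.00334). Here too the ages fell into different clusters when the libraries were clustered together. The Cd55 cluster held 10 and 10 cells of the 20-week replicates and 670 of the 2-week library, and the Akr1c18 cluster 22 and 1 against 194. An unnamed cluster led by Ccl7 and Tnfaip6, with 6 of 9 progenitor markers raised, held 209 and 530 against 28. No progenitor-like fit could be had in that setting. With libraries clustered alone, the call for Sparc was lost at a finer clustering (adjusted p = 0.0780) and under a stricter cell filter (adjusted p = 0.153), with log2 fold changes of -2.46 and -2.52. In mural-like cells neither of the 2 testable members was called by edgeR, where 0.196% of 2546 genes were. Neither was called by DESeq2 or had an unadjusted edgeR p under 0.05, which 86 of all genes had. Sparc there had a log2 fold change of -0.93 with an SE of 1.96, too wide to set its change apart from those of the other classes. The difference of the Sparc age effect between tenocyte-like and progenitor-like cells, fitted as an interaction with the library as a block, was -1.03 (SE 1.43, edgeR adjusted p = 1.00, with 0.198% of 9108 genes called), so a larger fall in one class than in the other was not shown.

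Summed over all cells, none of 6 testable members was called by edgeR (0.195% of 13320 genes were). At an unadjusted p under 0.05, 1136 of all genes passed, Sparc, Spock2, Spock3 and Smoc2 among them. Sparc stood at 4344 and 1852 CPM in the 20-week replicates and 18034 CPM at 2 weeks. Its log2 fold change was -2.42 (SE 0.97), with an adjusted p of 0.538 by edgeR and 0.0457 by DESeq2, which called 1.61% of genes. The cells summed differ between libraries: the B-lineage-like and muscle fibre-like barcodes, with next to no Sparc, made up 6.80% and 8.18% of the cells of 20-week replicate 2 and were not found as classes in the others.

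**Figure D3:**
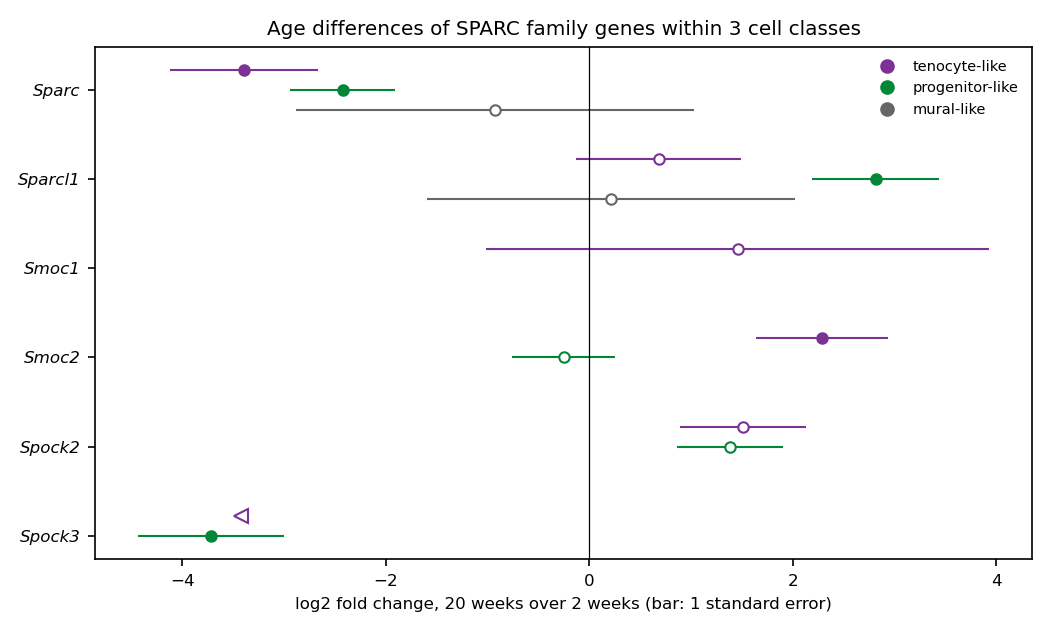
Log2 fold change, 20 weeks over 2 weeks, of 6 members in tenocyte-like, progenitor-like and mural-like cells, with bars of 1 SE and filled points where the edgeR adjusted p is under 0.05. The open triangle is a bound for Spock3, which had 0 UMIs in 20-week tenocyte-like cells and is at least 10.8-fold lower there, and Sparc in tenocyte-like cells lies at -3.39.

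Among the collagens that SPARC binds, the type I chains fell with Sparc in both classes. Of 11 collagen genes chosen as bound by SPARC or secreted with it, 5 fell and none rose in tenocyte-like cells, where 1.97% of all genes fell, and the list's median log2 fold change was -0.76 against 0.08 over all genes. The 5 were Col1a1, Col1a2, Col2a1, Col11a1 and Col11a2. Col1a1 had 2197 and 3198 CPM in the 20-week replicates and 80637 CPM at 2 weeks (log2 fold change -5.12, SE 0.74). Col3a1, a collagen of young and healing tendon, had 1284 and 1516 CPM at 20 weeks and 2044 CPM at 2 weeks and did not pass (-0.76, SE 0.79). Summed chondrocyte markers, Col2a1 among them, were 95.2 and 75.4 CPM in these cells at 20 weeks and 530 CPM at 2 weeks, and their part in the result was not tested. In progenitor-like cells 6 of 9 fell, where 1.52% of all genes fell, with a list median of -2.22. They were Col1a1, Col1a2, Col3a1, Col5a1, Col5a2 and Col11a1, and Col3a1 had 1438 and 1366 CPM at 20 weeks and 19568 CPM at 2 weeks. Set against type I collagen, Sparc was higher at 20 weeks. There were 269 and 111 Sparc UMIs per 100 Col1a1 UMIs in tenocyte-like cells of the 20-week replicates and 54.8 at 2 weeks. In progenitor-like cells there were 530 and 266 at 20 weeks and 109 at 2 weeks, with both 20-week libraries above the 2-week library in each class.

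Across cell types, genes of collagen folding were among those that followed Sparc. Over 29 sums by class or unnamed cluster and library, the genes whose log2(CPM + 10) followed Sparc most closely among 11376 genes were Maged1 (Pearson r = 0.95), Fkbp10 (0.94), Rcn3 (0.94), Serpinh1 (0.94) and Atraid (0.93). Fkbp10 and Serpinh1 are chaperones of collagen folding in the endoplasmic reticulum. These r values are descriptive, since sums share libraries and ages.

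Sparcl1 was highest, among the named classes, in mural-like cells at both ages, at 1669 and 1719 CPM in the 20-week replicates and 1305 CPM at 2 weeks, and 92.2% and 94.9% of these cells at 20 weeks and 92.5% at 2 weeks held at least 1 UMI (86.3% and 79.5% at 20 weeks and 61.4% at 2 weeks after thinning to 1000 UMIs). The 20-week libraries lay above the 2-week library, but the log2 fold change was 0.22 (SE 1.81, edgeR adjusted p = 0.999). Mural-like cells held 37.8% and 3.47% of the Sparcl1 UMIs in the 20-week replicates and 51.4% at 2 weeks. Unnamed clusters held 56.5% and 82.9% at 20 weeks and 38.3% at 2 weeks. At 2 weeks Sparcl1 differed within the mural cells, with 1480 CPM in the cluster led by P2rx1 and Tagln, and 651 CPM in the cluster led by Kcnj8 and Rgs5. A further cluster with mural genes, led by Fabp4 and Nrgn, stayed unnamed and had 1953 CPM. The 20-week mural-like cells were led by Tagln and Acta2 in replicate 1 and by Rgs5 and Kcnj8 in replicate 2. In 20-week replicate 2, Sparcl1 had 0 UMIs in B-lineage-like and muscle fibre-like barcodes and 2 UMIs, or 14.0 CPM, in myogenic-like cells, and at 2 weeks myogenic-like cells had 4.03 CPM. No such class was found in 20-week replicate 1, so its background was not measured.

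In progenitor-like cells Sparcl1 rose at 20 weeks from a low base. It had 37.6 and 202 CPM in the 20-week replicates and 17.1 CPM at 2 weeks. Both 20-week libraries lay above the 2-week library, and replicate 2 lay far above replicate 1. The log2 fold change was 2.81 (SE 0.63, edgeR adjusted p = 0.00398), against 0.0802 by DESeq2. With replicate 2 left out it was 1.17 and with replicate 1 left out 3.40, values without a test. After thinning the sums to equal depth the adjusted p was 0.0651. Shares of cells with a UMI were 9.28% and 38.3% at 20 weeks and 7.24% at 2 weeks, and after thinning to 1000 UMIs they were 3.09% and 13.9% at 20 weeks and 2.15% at 2 weeks. Summed levels of the 9 mural markers in these cells were 150 and 24.2 CPM at 20 weeks and 218 CPM at 2 weeks, and those of 8 endothelial markers were 154 and 222 CPM at 20 weeks and 137 CPM at 2 weeks. Of these, Emcn and Vwf were at 0 in all 3 libraries. Other lists were highest in replicate 2, as Sparcl1 was. The 7 Schwann markers summed to 21.9 and 144 CPM at 20 weeks and 4.24 CPM at 2 weeks, with Foxd3 at 0 in all 3 libraries. The 8 muscle fibre markers summed to 6.27 and 151 CPM at 20 weeks and 24.9 CPM at 2 weeks, and the 6 macrophage markers to 0 and 36.3 CPM at 20 weeks and 2.73 CPM at 2 weeks. At a finer clustering of replicate 2, 120 cells were named Schwann-like and 100 progenitor-like, where 209 had been progenitor-like, and the log2 fold change of Sparcl1 was 3.51 (SE 0.61, edgeR adjusted p = 1.88e-06). The part of mural, endothelial, muscle or macrophage RNA in the result was not tested.

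In tenocyte-like cells Sparcl1 split both the replicates and the young clusters. It had 36.6 and 526 CPM in the 20-week replicates and 143 CPM at 2 weeks, on both sides of the 2-week value, and did not pass the test (log2 fold change 0.68, SE 0.81, adjusted p = 0.907). At 2 weeks it had 551 CPM in the Col22a1 cluster, where Sparc was lower, and 21.5 CPM in the Angptl7 cluster, where Sparc was higher. Against the Angptl7 cluster alone Sparcl1 was called higher at 20 weeks (log2 fold change 3.29, SE 0.83, edgeR adjusted p = 0.00305), and against the Col22a1 cluster alone its sign turned (-0.97, SE 0.83, adjusted p = 0.837). Over the 29 sums, the genes closest to Sparcl1 were Gnb4 (r = 0.84), Plekhg2 (0.82) and Pdgfrb (0.81), the receptor that marks pericytes, with Spaca6 (0.81) and Bmp5 (0.78). Sparc and Sparcl1 themselves had an r of 0.32.

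**Figure D4:**
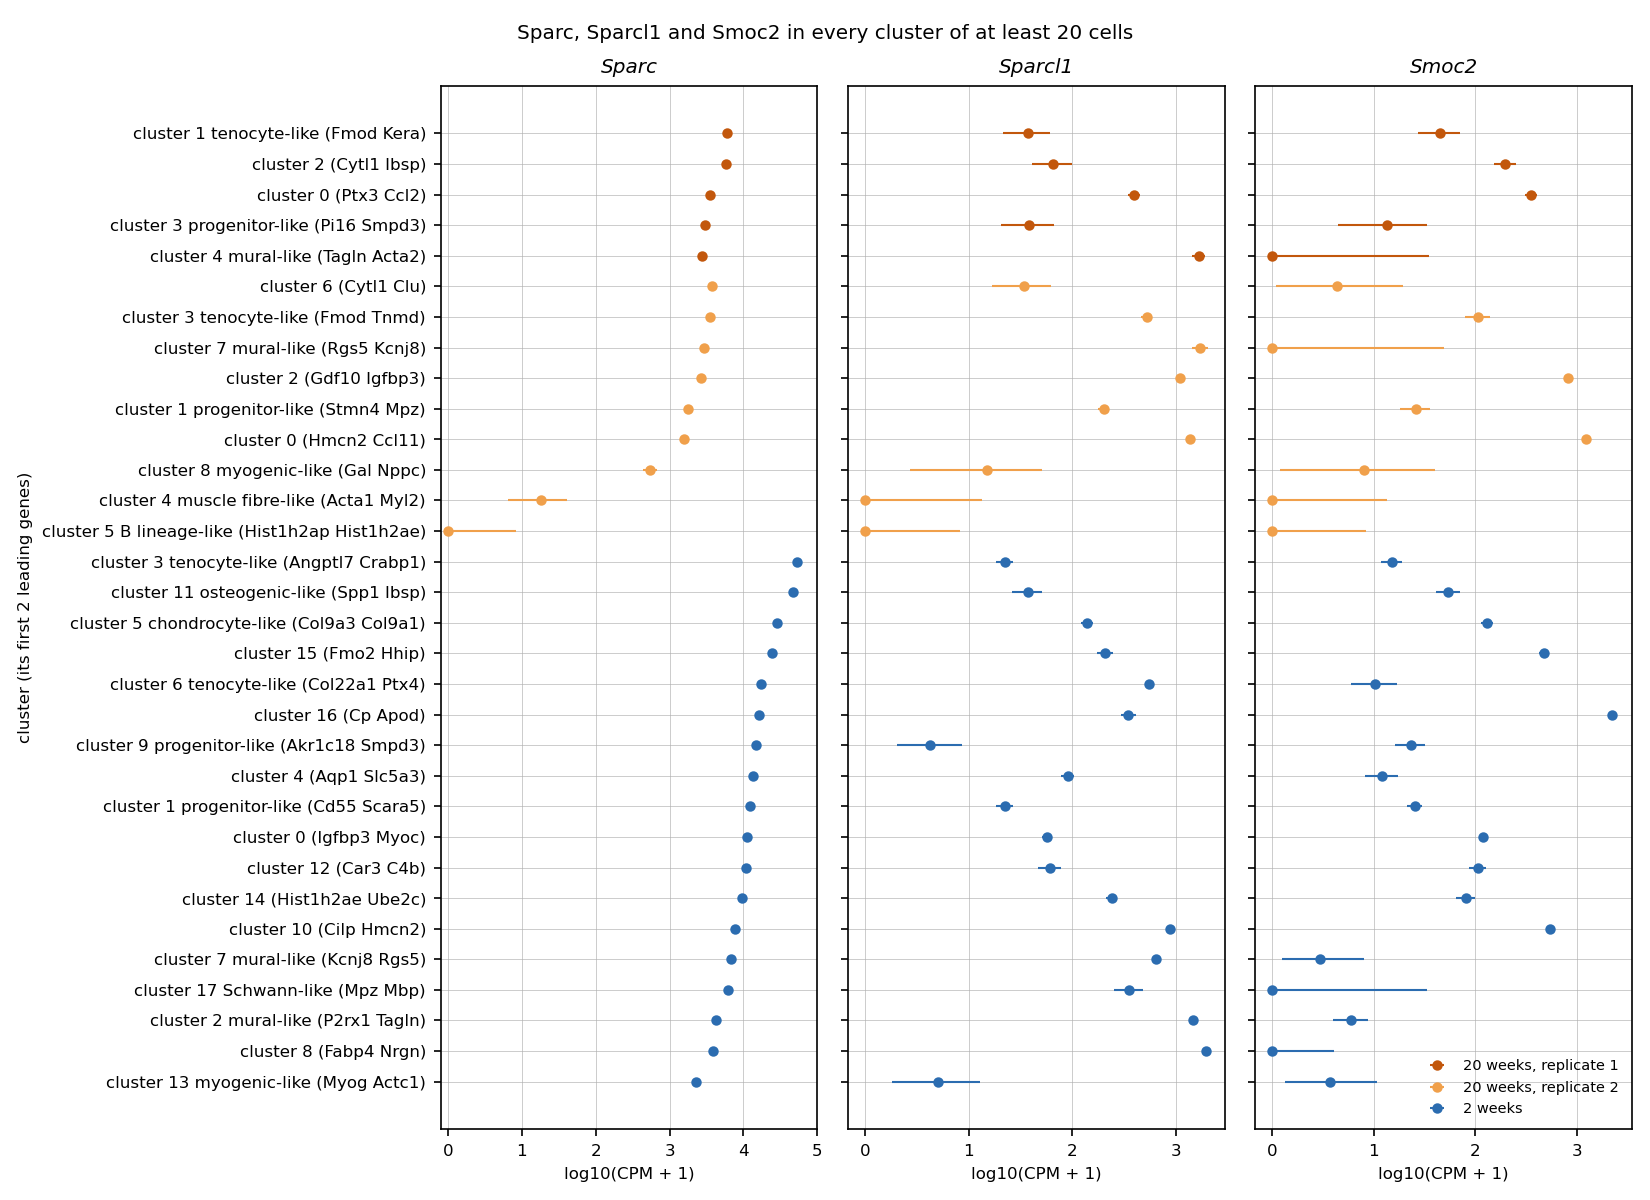
Levels of Sparc, Sparcl1 and Smoc2 as log10(CPM + 1) on the horizontal axes, in every cluster of at least 20 cells (20-week replicates above, 2 weeks below, each ordered by Sparc), with exact Poisson 95% intervals. Sparcl1 is high in the mural-like clusters, in the 2-week cluster led by Fabp4 (1953 CPM) and in the 20-week clusters led by Hmcn2 (1380 CPM) and Gdf10 (1092 CPM), and Smoc2 is highest in the 2-week cluster led by Cp and Apod, at 2221 CPM.

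Smoc2 was mostly made by cells that no marker list named. These unnamed clusters held 92.8% and 97.0% of its UMIs in the 20-week replicates and 84.9% at 2 weeks, while they were 51.6% and 45.6% of the cells at 20 weeks and 43.4% at 2 weeks. Smoc2 was among the genes that led some of them. In 20-week replicate 2 it had 1228 CPM in the cluster led by Hmcn2 and Ccl11 and 820 CPM in the one led by Gdf10 and Igfbp3, and in replicate 1 it had 353 CPM in the cluster led by Ptx3 and Ccl2. At 2 weeks it had 2221 CPM in 78 cells led by Cp and Apod and 545 CPM in 170 cells led by Cilp and Hmcn2. The Hmcn2 clusters of both ages also held Sparcl1, at 1380 CPM at 20 weeks and 876 CPM at 2 weeks. Mural-like cells had 0 Smoc2 UMIs in both 20-week replicates and 4.32 CPM at 2 weeks. Over the 29 sums Smoc2 followed Lum (r = 0.81), Svep1 (0.80), Pdgfra (0.78), Clec1a (0.77) and F3 (0.77), of which Lum and Pdgfra are fibroblast genes.

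Among tenocyte-like cells Smoc2 rose at 20 weeks, at a low level. It had 43.9 and 105 CPM in the 20-week replicates, from 18 and 50 UMIs, and 12.9 CPM at 2 weeks from 79 UMIs, with both 20-week libraries above the 2-week library. The log2 fold change was 2.28 (SE 0.65, edgeR adjusted p = 0.0261). The call was lost with DESeq2 (adjusted p = 0.387), without the filter on low counts (0.0650), after thinning (0.401) and under the stricter cell filter (0.365), and it held against each 2-week cluster alone. Summed markers of progenitor-like cells were also higher in the 20-week tenocyte-like cells, at 2675 and 1767 CPM against 531 CPM at 2 weeks, with all 9 detected in each library, and the part of such cells in the result was not tested. In progenitor-like cells Smoc2 had 12.5 and 25 CPM at 20 weeks and 23.6 CPM at 2 weeks (log2 fold change -0.25, SE 0.50, adjusted p = 0.978). This value depended on how those cells were drawn. It was 1.18 at a finer clustering and 1.42 under the stricter cell filter. With doublets removed at their expected rate it was 2.20 and was called (edgeR adjusted p = 0.000975). In that last setting the class held 213 and 217 cells at 20 weeks in place of 97 and 209. Smoc2 then had 162 CPM in replicate 1. The age effect in tenocyte-like minus that in progenitor-like cells was 2.61 (SE 0.68, edgeR adjusted p = 0.220), which did not pass. Without the filter on low counts its adjusted p was 0.0332.

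Smoc1 was highest, among the named classes, in chondrocyte-like and osteogenic-like cells of the 2-week tendon. It had 184 CPM in chondrocyte-like cells at 2 weeks, where 56.8% of cells held a UMI (exact 95% interval 50.5% to 63.0%), and 74.9 CPM in osteogenic-like cells. An unnamed 2-week cluster led by Aqp1 and Slc5a3 had 112 CPM. Tenocyte-like cells had 24.4 and 4.19 CPM at 20 weeks, from 10 and 2 UMIs, and 4.59 CPM at 2 weeks, and the test did not pass (log2 fold change 1.46, SE 2.47, adjusted p = 0.949). With the libraries clustered together it was called (2.23, edgeR adjusted p = 0.00658), but the class was then drawn differently. It held 244 and 166 cells at 20 weeks in place of 146 and 120, mostly in the cluster led by Spp1 and Ibsp. Smoc1 had 48.6 and 5.15 CPM in those 20-week cells. The 20-week libraries had no chondrocyte-like class, but an unnamed cluster led by Cytl1 and Ibsp in replicate 1 had 79.5 CPM, and one led by Cytl1 and Clu in replicate 2 had 13.3 CPM. Over the 29 sums Smoc1 followed Scrg1 (r = 0.86), Cemip (0.86), Cracr2b (0.84), the BMP antagonist Grem1 (0.84) and the cartilage link protein gene Hapln1 (0.84). Smoc1 and Smoc2 themselves had an r of 0.10.

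Spock3 was lower at 20 weeks in both classes where it could be tested. In tenocyte-like cells it had 0 UMIs in both 20-week libraries and 222 UMIs at 2 weeks, or 36.4 CPM. With 3 counts over the 2 libraries in place of 0, it was at least 10.8-fold lower at 20 weeks (counting error only; edgeR adjusted p = 0.00116, DESeq2 adjusted p = 0.0473). Of the 2-week tenocyte-like cells, 20.9% held a UMI (exact 95% interval 17.9% to 24.2%), against 0 of 681 mural-like cells of the same library. Both young tenocyte clusters had it, the Col22a1 cluster at 68.0 CPM and the Angptl7 cluster at 27.0 CPM, and the call held against each. In progenitor-like cells there were 1 and 3 UMIs in the 20-week replicates, 3.13 and 2.27 CPM, and 206 UMIs or 31.2 CPM at 2 weeks. The ratio of the summed counts was 12.8 in favour of 2 weeks, with an exact 95% counting interval of 4.92 to 47.4 (log2 fold change -3.72, SE 0.72, edgeR adjusted p = 0.000623). DESeq2 gave no adjusted p for it. It passed edgeR's threshold under every alternative fit of progenitor-like cells in which it was tested, and in the sums thinned to equal depth it was too sparse to be tested. The genes closest to Spock3 over the 29 sums were Col22a1 (r = 0.74), a collagen of tissue junctions, Akr1c18 (0.72), Lgi3 (0.70), Gap43 (0.68) and Aard (0.68).

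Spock2, another testican, did not pass the test in either class. In tenocyte-like cells it had 36.6 and 81.7 CPM at 20 weeks, from 15 and 39 UMIs, and 17.7 CPM at 2 weeks (log2 fold change 1.51, SE 0.61, edgeR adjusted p = 0.219). In progenitor-like cells it had 15.7 and 62.8 CPM at 20 weeks and 16.2 CPM at 2 weeks (1.38, SE 0.52, adjusted p = 0.233), so replicate 1 was level with 2 weeks. With doublets removed at their expected rate it was called in progenitor-like cells (1.96, edgeR adjusted p = 0.00331). That setting also redrew the class, with 213 and 217 cells at 20 weeks in place of 97 and 209. Spock2 then had 63.3 CPM in replicate 1. Its highest levels were in unnamed clusters, 121 CPM in the 2-week cluster led by Fmo2 and Hhip and 96.1 CPM in the 20-week cluster led by Gdf10 and Igfbp3. It followed Svep1 (r = 0.88), Podn (0.86), Fmo1 (0.85), Adm (0.82) and Bicc1 (0.81), and its r with Smoc2 was 0.65, the highest of the 15 pairs of members.

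Other matricellular genes did not move as one with Sparc. Of 16 in tenocyte-like cells, 5 rose and 2 fell, where 2.06% of all genes rose and 1.97% fell, with a list median of -0.27. Comp, a pentameric collagen-binding protein, had 8967 and 3692 CPM in the 20-week replicates and 651 CPM at 2 weeks (log2 fold change 3.13, SE 0.96, adjusted p = 0.0444), and it is also 1 of the 7 markers that named these cells. Spp1, or osteopontin, had 2211 and 932 CPM at 20 weeks and 40.5 CPM at 2 weeks (5.13, SE 1.10). Tnxb, Ccn5 and Fbln1 rose as well, and Ccn3 and Ccn4 fell. DESeq2 called 5 of these 7 genes and not Ccn5 (adjusted p = 0.554) or Ccn3 (adjusted p = 0.0708). In a list of 14 in progenitor-like cells, Comp and Spp1 rose and Postn fell, where 1.25% of all genes rose and 1.52% fell. Postn, a matrix protein of growing and healing tissue, had 116 and 10.6 CPM in the 20-week replicates and 2076 CPM at 2 weeks. Comp had 266 and 34.8 CPM at 20 weeks and 5.61 CPM at 2 weeks. Spp1 had 59.5 and 3.03 CPM at 20 weeks and 1.52 CPM at 2 weeks. Both were far higher in replicate 1 than in replicate 2. DESeq2 called none of that list there, with adjusted p of 0.616 for Comp, 0.172 for Spp1 and 0.628 for Postn. The 7 tenocyte markers, Comp included, summed to 442 and 69.7 CPM in these cells at 20 weeks and 152 CPM at 2 weeks. Their part in the result was not tested. Of the follistatin-domain list outside the family, 2 genes could be tested in tenocyte-like cells and 1 passed, Fst, a secreted inhibitor of activins. None of 4 passed in progenitor-like cells and none of 4 in mural-like cells. Fst rose in tenocyte-like cells, with 9.76 and 85.9 CPM at 20 weeks and 8.52 CPM at 2 weeks, and replicate 1 was close to 2 weeks (DESeq2 adjusted p = 0.955). In progenitor-like cells it had 18.8 and 90.9 CPM at 20 weeks and 165 CPM at 2 weeks and was not called (edgeR adjusted p = 0.147). Its age effect was called higher in tenocyte-like than in progenitor-like cells by edgeR, which called 0.198% of genes there. After thinning, 0 genes were called for that difference. Fstl1, the most abundant of that list, had 2021 and 2119 CPM in progenitor-like cells at 20 weeks and 6508 CPM at 2 weeks, with an adjusted p of 0.0659 by edgeR and 0.0212 by DESeq2.

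Few receptors, partners and proteases passed the test, which called 4.04% of all genes in tenocyte-like cells and 2.78% in progenitor-like cells. Of the SPARC receptor and crosslinking genes, Itga2, a subunit of a collagen receptor, was the only one called, lower in both tenocyte-like (1 of 8 tested) and progenitor-like cells (1 of 10), though by DESeq2 in neither (adjusted p = 0.190 and 1.00). Itgb1, the most abundant, had 622 and 722 CPM in tenocyte-like cells at 20 weeks and 674 CPM at 2 weeks. By edgeR and by DESeq2, none of 13 growth factor and receptor genes passed in tenocyte-like cells and none of 14 in progenitor-like cells. In each class 4 had an unadjusted edgeR p under 0.05. Of all genes, 782 of 6542 in tenocyte-like cells and 915 of 9729 in progenitor-like cells had such a p. Of the BMP ligands, receptors and antagonists, Bmp7 fell in progenitor-like cells (1 of 12), where DESeq2 gave it no adjusted p. No BMP target gene passed in tenocyte-like or progenitor-like cells by edgeR or DESeq2 (0 of 4 and 1 of 5 at an unadjusted edgeR p under 0.05). Id3, the most abundant of those targets, had 905 and 1765 CPM in tenocyte-like cells at 20 weeks and 822 CPM at 2 weeks. Of the protease list, Mmp3 and the protease inhibitor Timp3 rose in tenocyte-like cells (2 of 11), and Mmp16 fell in progenitor-like cells (1 of 11). Of these, DESeq2 called Timp3, but neither Mmp3 (adjusted p = 0.101) nor Mmp16 (adjusted p = 0.475). Timp3 had 3065 and 1313 CPM at 20 weeks and 171 CPM at 2 weeks in tenocyte-like cells. Of the 8 mineralization genes, 2 could be tested in each of these classes and 1 was called in each. Ibsp, a bone sialoprotein, rose in tenocyte-like cells to 190 and 109 CPM, against 4.59 CPM at 2 weeks. The calcification inhibitor Mgp fell in progenitor-like cells to 169 and 124 CPM, against 527 CPM. In tenocyte-like cells Mgp was not called (log2 fold change 0.45, SE 0.84, edgeR adjusted p = 0.951). Summed osteogenic markers, Ibsp included, were 205 and 119 CPM in 20-week tenocyte-like cells, and 10.3 CPM at 2 weeks, with Bglap, Sp7 and Dmp1 at 0 in all 3 libraries, and their part in the result was not tested.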

How the data were processed

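The deposited files hold UMI counts per gene and barcode, not normalized. The authors made these counts with Cell Ranger 6.1.2 on mm10, per the submitters' processing notes, and the annotation release and strand setting are not given in the sources used here. Barcodes were kept with at least 500 genes, 1000 UMIs and at most 10% mitochondrial UMIs. Doublets were scored as the scrublet method defines, and 2 and 0 barcodes of the 20-week replicates and 14 of the 2-week library were left out, or 0.328%, 0% and 0.282%, where 0.487%, 0.812% and 3.97% were expected. The caller therefore found next to none. Removal at the expected rate was first tried as the main setting and was made an alternative after the clusters had been seen. At 2 weeks it leaves 72 cells in the cluster led by Ube2c and Top2a, against 96. In 20-week replicate 1 it removes 3 barcodes in place of 2, yet 213 cells were then named progenitor-like in place of 97.

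Each library was clustered alone (scanpy 1.11.5; 2000 variable genes without the members, 30 principal components, 15 neighbours, Leiden resolution 0.5, seed 0, python-igraph 0.11.9). A cluster took the name of 1 of 15 marker lists when at least 3 markers and 50% of the list were 2-fold above the library's other cells, at least 1 was among its 10 leading genes and no other list had more there. This rule, and the choice to cluster libraries alone, were made after several clusterings had been seen, from cluster sizes and leading genes, among which Smoc1, Smoc2 and Sparcl1 appeared.

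Counts were summed per library and class (at least 20 cells each) and tested with edgeR 4.0.16 in R 4.3.3 (quasi-likelihood, TMM, filterByExpr, Benjamini-Hochberg at 0.05). DESeq2 1.42.0 was an alternative. The 3 libraries leave 1 residual degree of freedom. The edgeR test adds to it the spread pooled over genes, as prior degrees of freedom. These were 66.0 in tenocyte-like cells, 41.5 in progenitor-like cells, 6.16 in all cells and infinite in mural-like cells. A gene's own spread between libraries thus counts for little. Adjusted p-values without a tool are edgeR's. CPM values are plain, and fold changes are scaled by TMM. The SE given with an edgeR fold change was worked back from the test. It is the absolute log2 fold change divided by the square root of the test's F value. When a library was left out, a ratio with 2 counts added was given without a test. A count of 0 was bounded with 3 counts. Intervals are at 95% and cover counting error only. The fit was tried on counts simulated with the same spread for all genes and libraries. That trial does not measure how the fit does at the spread of these libraries. The members, gene lists and tests were chosen with earlier results of these data known. All 7 members are reported, and genes of the 9 lists were named where they passed the threshold or, in part, where they were among the 3 most abundant of their list. Closest genes are the 5 with the highest r among genes reaching 20 CPM. A result of the list of BMP ligands, receptors and antagonists in tenocyte-like cells is not reported here.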

Additional observations from a re-analysis of the deposited data

How the results depend on the processing

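No paired analysis was possible, because the labels pair no library of 2 weeks with one of 20 weeks. Replicate numbers only count libraries within an age. In tenocyte-like cells the number of genes called (264) became 132 with DESeq2, 485 under the stricter cell filter and 705 with the libraries clustered together. In progenitor-like cells 270 became 97 after thinning and 79 with DESeq2. In all cells 26 became 5 with library totals alone, 659 without the low-count filter, 17 after thinning, 200 with DESeq2, 0 under the stricter cell filter and 0 with doublets removed at the expected rate. In mural-like cells 5 became 0 after thinning, 2 with DESeq2, 3 with the libraries clustered together, 37 against 2-week cluster 2 alone and 2 against cluster 7 alone. For the difference of age effects, tenocyte-like minus progenitor-like (18), the counts were 61 without the filter, 0 after thinning, 41 at resolution 1.0 and 49 with doublets removed. For mural-like minus progenitor-like (10) they were 18 with RLE size factors, 16 with library totals alone, 70, 0, 33 and 51 under those same 4 settings in that order, and 31 with the members among the variable genes. For mural-like minus tenocyte-like (15) they were 78, 0, 35 and 49 under the 4 settings, 32 with the members among the variable genes and 8 with doublets kept. The cause of these moves was not tested. The highest named class was the same for 9 of 16 pairs of member and library under the stricter cell filter, which leaves no mural-like cells in 20-week replicate 1. For that reason no mural-like fit or difference of age effects could be had there, and progenitor-like cells were too few at 20 weeks to be fitted with the libraries clustered together.

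The sign of Sparc's age effect was negative under every alternative in each class. Log2 fold changes that turned were all of members that were not called at the settings of the report. Sparcl1 in tenocyte-like cells was -0.58 under the stricter filter, -0.055 with the libraries clustered together and -0.97 against cluster 6, and from -2.03 to 1.52 with 1 replicate left out. With 1 replicate left out, Smoc1 ranged from -0.43 to 2.18 in tenocyte-like cells, and in all cells Sparcl1 ranged from -0.20 to 0.78 and Smoc1 from -2.61 to 0.088. Smoc2 in progenitor-like cells was 1.18 at resolution 1.0, 0.024 with the members among the variable genes, 1.42 under the stricter filter and 2.20 with doublets removed, where it was called, and Spock2 there was -0.68 at resolution 1.0. Sparcl1 in mural-like cells was -0.10 without the low-count filter and -0.034 against cluster 2. Among the differences of age effects, with doublets removed, Spock2 was -0.66 (tenocyte-like minus progenitor-like) and -0.31 (mural-like minus progenitor-like) and Sparcl1 was -0.46 (mural-like minus tenocyte-like), and Spock2 was -0.045 (mural-like minus tenocyte-like) without the filter. The settings with doublets removed at the expected rate, the libraries clustered together and single 2-week clusters were chosen after seeing the data. The 51 and 39 mural-like cells at 20 weeks limit what could be seen there.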
